A study of Mus musculus with 6 samples.

Results

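Mitotic spindle, kinesin and kinetochore genes were taken as the probe sets with a single platform gene symbol that begins with Kif or Cenp followed by a letter or digit, together with 26 named genes of mitosis from Bub1 to Foxm1. The rule found 89 genes with 201 probe sets among 18193 named genes, and 25 of the 26 named genes were matched (Ccnb1 was not analysed here). Of the 89 genes, 81 had a probe set above the filter on low values described below, and each gene was represented by its brightest probe set, judged by the mean of the 6 arrays. The genes were chosen by name and no measured value entered the rule, but it was set with earlier results of these data known. The question was how kinesins used in mitosis differed between the groups beside kinesins used for transport.

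Kinesins are motor proteins that walk along microtubules or take them apart. Some work only when a cell divides, where they build the spindle, move chromosomes and cut the daughter cells apart, while transport kinesins carry vesicles, organelles and ciliary cargo in cells that may never divide again. Cenp proteins form the centromere and kinetochore, the platform on which a chromosome meets the spindle, and the checkpoint proteins Bub1, Bub1b, Bub3, Mad2l1 and Ttk hold back anaphase until every kinetochore is attached. The mitotic genes are switched on late in the cell cycle and are therefore read in a tissue as a measure of dividing cells. Towards birth the lung normally slows its growth as its cells mature.

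The samples were whole fetal lungs at E18.5, with 3 animals of the genotype Nfib f/f as controls and 3 that carried Dermo1-Cre as well as Nfib f/f, hybridised to Affymetrix arrays as biological replicates. Both groups carried the floxed Nfib allele, a gene for a nuclear factor I transcription factor. The groups differed by the Cre, which is expressed from the Dermo1 (Twist2) gene and is used to recombine alleles in mesenchyme. Which lung cells recombined the allele was not measured here. Lungs with Cre and an unfloxed Nfib were not analysed here, and the labels give no strain or sex.

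The Nfib probe set with the highest mean read 10.24, 10.32 and 10.17 on the control-labelled arrays and 11.24, 11.16 and 11.49 on the Cre-labelled arrays, a log2 difference of 1.05 ± 0.12 (SE) with an adjusted p of 0.0049 (limma). The signal of this probe set was thus higher on the arrays labelled with the Cre. Where the probes lie against the floxed part is not known here, so they do not check the genotypes, and the groups are called by their labels throughout. Markers of lung epithelium (8 of 8), lung mesenchyme (9 of 9) and endothelium (8 of 8) were all above the filter. Most markers of thymus (4 of 5 found), squamous oesophagus (4 of 6) and neurons (4 of 6) lay below it. Of liver markers only 1 of 4 found lay below it, and of cardiac muscle markers 0 of 10. The summed linear signal of the liver markers was 34, 819 and 232 on the control-labelled arrays. On the Cre-labelled arrays it was 113, 54 and 382.

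Values are log2 MAS5 signals, and a difference of 1 is a 2-fold change. A probe set was tested when its mean over the 6 arrays was at or above the 40th percentile, a log2 signal of 4.003, and it passed when its limma p, adjusted by the Benjamini-Hochberg method across all 27022 tested probe sets, was below 0.05. Differences are Cre-labelled minus control-labelled, with SE from limma and n = 3 in each group, and a level is not comparable between genes because each probe set binds differently. The p-values set a difference against the spread between these animals, which limma combined with the spread across probe sets of like signal.

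Of the 81 tested members, 20 rose in the Cre-labelled lungs and 0 fell, which is 24.7% of them. Of all 12826 tested genes 4.96% passed, 1.92% by rising and 3.04% by falling. At an unadjusted p below 0.05, 46 members were higher and 4 lower, where 10.7% of all tested genes were higher and 12.8% lower. In 49 of the 81, or 60.5%, every Cre-labelled array lay above every control-labelled array, against 15.3% of all tested genes, and in 4 every one lay below, against 16.5%. The median difference was 0.36 over the 81 members, a fold of 1.29, and -0.01 over all tested genes. Of the 20, 10 passed in no fit that left out 1 array and none passed in all 6 such fits. All 20 kept a higher mean in each of the 17 other settings tried. Most of these settings could not turn the sign, because the groups did not overlap in any of the 20. Only another scaling between arrays or a covariate could have done so. Without limma's intensity trend 0 members passed, with 45 higher and 3 lower at an unadjusted p below 0.05. Of 100 tested probe sets of the 56 members that are neither transport nor other kinesins, 97 had a higher mean, and the other 3 belong to Cenpb, Ube2c and Dlgap5. Of the 20, 12 had other tested probe sets, of which 0 passed and 0 had the opposite sign. In whole lungs, more dividing cells and more RNA per dividing cell cannot be told apart.

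Kinesins of mitosis were then set beside kinesins of transport. All 11 tested mitotic kinesins had a higher mean in the Cre-labelled lungs (48.5% of all tested genes did). In this list 5 passed, and in 10 of 11 the groups did not overlap, with a median difference of 0.53 (1.45-fold). Over all tested genes 1.92% passed by rising and 15.3% lay above without overlap. Of the 16 tested transport kinesins, 9 had a higher and 7 a lower mean, 0 passed, and the median difference was 0.05 (1.03-fold). At an unadjusted p below 0.05, 2 of the 16 were higher and 3 lower, near the 10.7% and 12.8% of all tested genes. The transport list includes Kifap3, the adaptor of the Kif3 motor. Kif2a, which also works at spindle poles, was counted in neither list. Its difference was 0.18 with a 95% interval of -0.02 to 0.38, which included 0 and lay below the median of the mitotic kinesins. The 95% interval of the difference lay wholly below the median of the mitotic kinesins in 12 of the 16 transport kinesins. The interval included 0 in 11 of the 16, against 1 of the 11 mitotic kinesins. The share of all tested genes with an interval below that median was not counted. With their median difference of -0.01 and median SE of 0.145 many would have one, so the 12 show nothing particular to transport kinesins. The lists as such were not tested against each other, since their genes were named with earlier results of these data known.

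**Figure D1:**
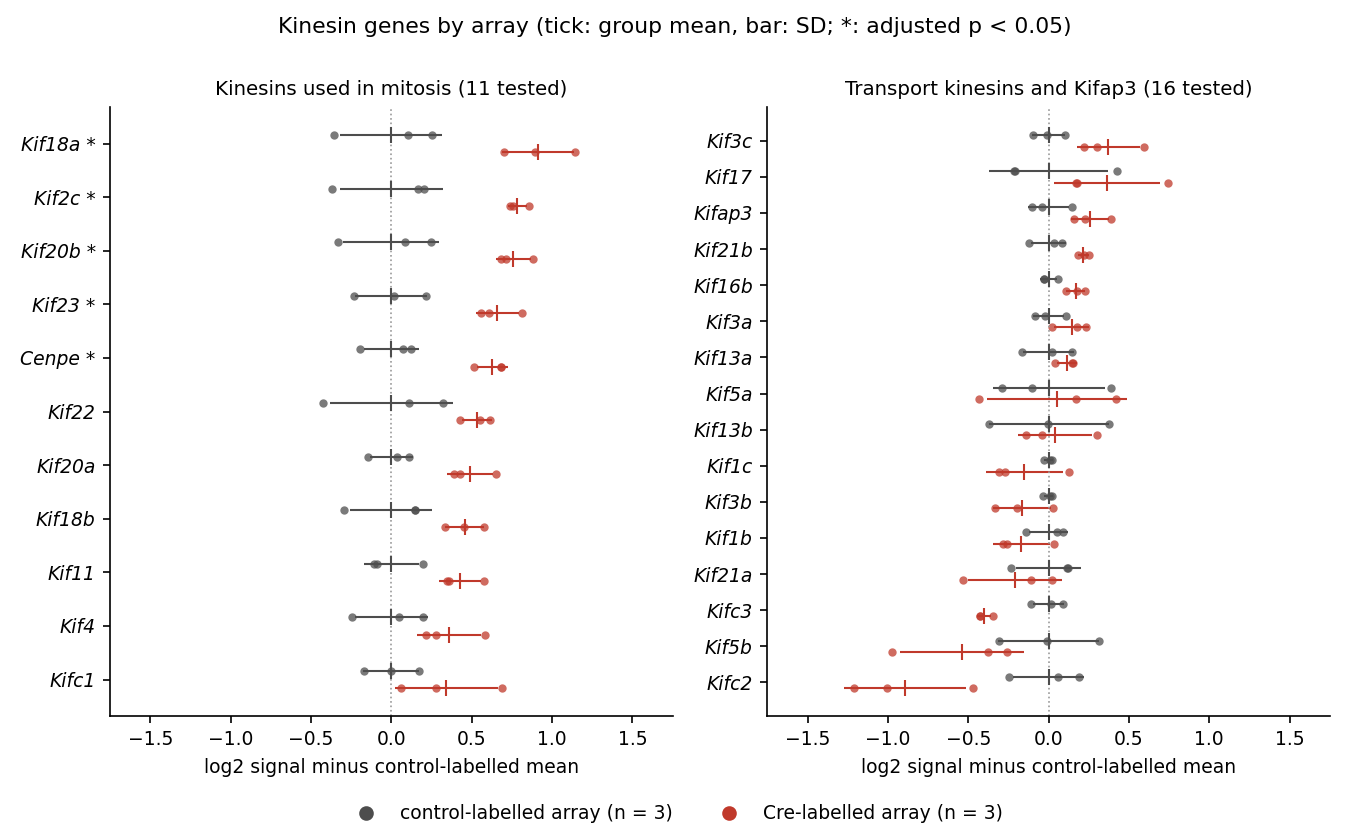
Log2 difference from the mean of the control-labelled arrays (x axis) for each tested mitotic and transport kinesin (y axis), with 1 point per array, a tick at each group mean, a bar for the SD and a star for genes that passed. The 11 mitotic kinesins all have Cre-labelled means to the right of 0, from 0.34 to 0.91, while the 16 transport kinesins lie on both sides, from -0.89 to 0.37.

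Kif18a, a motor at the plus ends of kinetochore microtubules that damps chromosome oscillation, read 6.60, 6.46 and 5.99 on the control-labelled arrays and 7.49, 7.05 and 7.24 on the Cre-labelled arrays. Every Cre-labelled array was above every control-labelled array, with the lowest value on control-labelled array 3. The difference was 0.91 ± 0.19, or 1.88-fold, with an adjusted p of 0.036 (95% interval 0.48 to 1.34).

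Kif2c, which takes microtubules apart at the centromere and so corrects wrong attachments, read 8.44, 8.48 and 7.91 against 9.13, 9.02 and 9.03. The 3 Cre-labelled arrays lay within a narrow range and above all controls, and the gene rose by 0.78 ± 0.15 (1.72-fold, adjusted p 0.026 by limma). Kif20b, a kinesin of the spindle midzone and of cytokinesis, read 7.97, 7.81 and 7.39 against 8.60, 8.43 and 8.40, and rose by 0.76 ± 0.15 (1.69-fold, adjusted p 0.030). In both genes control-labelled array 3 was again the lowest of its group.

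Kif23, the motor subunit of centralspindlin, which bundles midzone microtubules for cleavage, read 8.73, 8.54 and 8.28 against 9.33, 9.08 and 9.13. It rose by 0.66 ± 0.13 (1.58-fold, adjusted p 0.029 by limma) with no overlap between groups. Cenpe is a kinesin despite its name and carries chromosomes along microtubules to the spindle equator. Its probe set read 8.24, 8.20 and 7.93 against 8.81, 8.64 and 8.80, a rise of 0.63 ± 0.12 (1.54-fold, adjusted p 0.024).

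The other 6 tested mitotic kinesins did not pass by their standing probe set. The smallest differences were those of Kifc1, Kif4 and Kif11. Kif11, the motor that pushes the spindle poles apart, read 7.51, 7.23 and 7.21 against 7.66, 7.89 and 7.67, a difference of 0.43 ± 0.13 with an adjusted p of 0.11. The groups did not overlap, and a second Kif11 probe set had a difference of 0.52 ± 0.12 and an adjusted p of 0.048. Kif4, a chromosome-bound motor that also shapes the midzone, read 7.53, 7.38 and 7.08 against 7.92, 7.61 and 7.55, a difference of 0.36 ± 0.15 (adjusted p 0.24). Kifc1 walks to minus ends and focuses spindle poles. Its probe set was the only one of the 11 with overlapping groups, at 6.72, 6.55 and 6.38 against 7.24, 6.83 and 6.61, and its 95% interval ran from -0.08 to 0.76.

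Kif22, Kif20a and Kif18b lay between these groups, with differences of 0.53 ± 0.17 (adjusted p 0.13), 0.49 ± 0.11 (0.051) and 0.46 ± 0.15 (0.14). Kif22, a chromosome arm motor, shows how much a call can rest on the probe set. Its standing probe set read 10.21, 10.003 and 9.47 against 10.32, 10.45 and 10.51. Another of its probe sets read 8.30, 8.29 and 8.20 against 9.03, 9.01 and 9.04, with a difference of 0.76 ± 0.09 and an adjusted p of 0.0054. Counted by probe set, 20 of 20 tested probe sets of mitotic kinesins had a higher mean in the Cre-labelled lungs and 7 passed, whereas 26 of 45 of transport kinesins had a higher mean and 0 passed. Over all tested probe sets 50.1% had a higher mean and 3.56% passed, 1.41% upwards and 2.16% downwards. The remaining 3 mitotic kinesins lay below the filter, where MAS5 signals are noisy: Kif14 had mean log2 signals of 0.09 ± 1.53 (SD) in control-labelled and 0.66 ± 0.67 in Cre-labelled lungs, Kif15 3.30 ± 0.71 and 2.98 ± 0.51, and Kifc5b 2.77 ± 1.37 and 3.88 ± 0.72.

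Among transport kinesins none passed, and the 3 largest differences, of Kifc2, Kif5b and Kifc3, were all below 0. Kif3c, a neuronal partner of Kif3a, had the largest above 0, at 7.10, 6.99 and 6.90 against 7.30, 7.22 and 7.60, a difference of 0.37 ± 0.14 (adjusted p 0.18, 95% interval 0.06 to 0.69). Kifc2, a minus-end motor best known from neurons, was the lowest at 5.72, 5.59 and 5.28 against 4.32, 5.06 and 4.53, a difference of -0.89 ± 0.26 (adjusted p 0.094, 95% interval -1.48 to -0.31). Kifc3, a minus-end motor of epithelial cells, read 7.41, 7.34 and 7.21 against 6.97, 6.89 and 6.89, a difference of -0.40 ± 0.12 (adjusted p 0.10). In both of these the Cre-labelled arrays lay below all controls. Kif3a, a subunit of the motor that carries cargo into cilia, read 8.13, 8.0 and 7.94 against 8.20, 8.26 and 8.05. Its groups overlapped, the difference was 0.14 ± 0.11, and the 95% interval of -0.10 to 0.39 lay below the median of the mitotic kinesins.

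Kif5b, the conventional kinesin that carries organelles outwards in most cells, was measured by several probe sets that gave different answers. The one with the highest mean read 9.54, 9.24 and 9.86 against 9.29, 8.57 and 9.17, a difference of -0.54 ± 0.21 (adjusted p 0.19, limma). A second read 7.81, 7.84 and 8.32 against 7.46, 7.53 and 7.29, with no overlap and a difference of -0.56 ± 0.15 (adjusted p 0.081). A further one read 8.50, 8.54 and 7.72 against 8.54, 9.15 and 9.31, a difference of 0.75 ± 0.25 (adjusted p 0.13) in the opposite direction, and the other 3 had differences of -0.06, -0.01 and 0.43. No direction can be given for Kif5b from these probe sets.

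**Figure D2:**
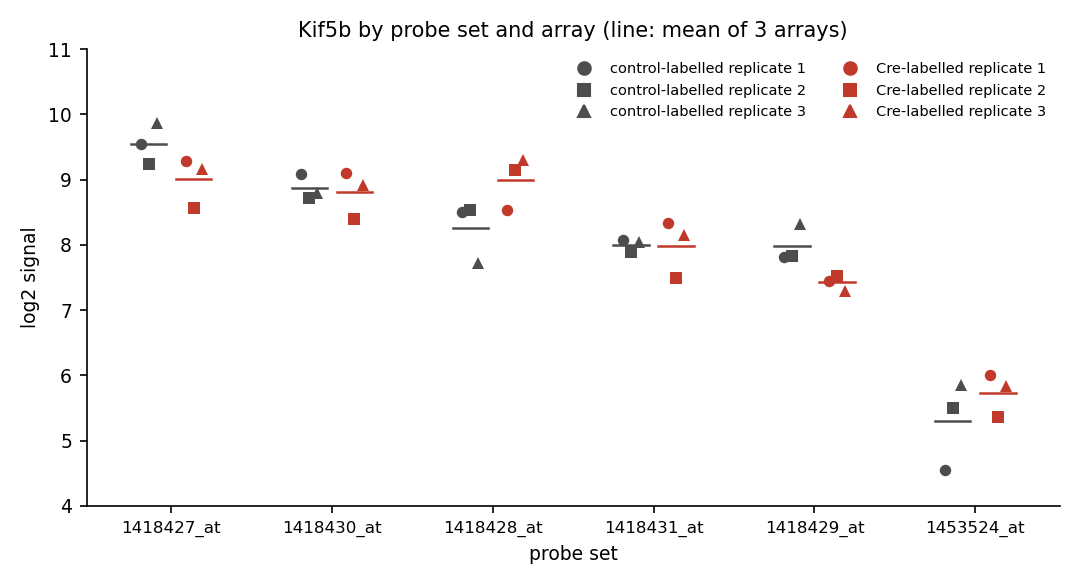
Log2 signal (y axis) of each Kif5b probe set on the 3 control-labelled and 3 Cre-labelled arrays (points), with a line at each group mean. The probe sets differ in direction, with Cre-labelled minus control-labelled differences from -0.56 to 0.75.

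The kinesins in neither list numbered 12, of which 9 were tested, with a median difference of -0.18. Kif26b was the exception among them. This kinesin lacks motor activity and is known from mesenchymal cells of the developing kidney. It read 5.98, 5.91 and 5.61 against 6.59, 6.58 and 6.68, with no overlap, and rose by 0.78 ± 0.16 (1.72-fold, adjusted p 0.036). Kif7, a regulator of Hedgehog signalling in the cilium, read 6.58, 6.59 and 6.38 against 6.82, 6.82 and 6.77, a difference of 0.28 ± 0.14 (adjusted p 0.30). Kif2a, which shortens microtubules in neurons and at spindle poles, read 8.71, 8.69 and 8.64 against 8.89, 8.84 and 8.87, a difference of 0.18 ± 0.09 (adjusted p 0.29). In both genes the groups did not overlap but the difference did not pass. Kif26a read 4.74, 5.31 and 5.69 against 5.56, 5.71 and 2.83, so that its difference of -0.55 ± 0.67 rested on Cre-labelled array 3.

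Kif12, Kif28, Kif2b, Kif5c and Kif1a, which belong to the transport and other kinesins, lay below the filter. Their mean log2 signals in control-labelled and Cre-labelled lungs were 2.59 and 3.48 for Kif12, -0.05 and 0.18 for Kif28, 1.69 and 1.28 for Kif2b, 3.94 and 3.62 for Kif5c, and 3.76 and 2.36 for Kif1a. No change is read from them.

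The promoters of the kinesins that passed are shown here with one transport kinesin, Kif3a, since the lists held different shares of the motifs below. Each is the RefSeq sequence of GRCm38.p6 from 250 bases before to 50 bases after the annotated start, 5′ to 3′ on the gene's strand. Capitals mark a cell cycle homology region (CHR, searched as TTTGAA or TTCGAA, both strands), the element through which the DREAM complex acts on late cell cycle genes, or a CCAAT box (CCAAT, both strands), which binds nuclear factor Y. The windows lie at chr2:109280488-109280787 on the plus strand for Kif18a, chr4:117178723-117179022 on the minus strand for Kif2c, chr19:34922108-34922407 on the plus strand for Kif20b, chr9:61946750-61947049 on the minus strand for Kif23, chr3:135212313-135212612 on the plus strand for Cenpe, chr1:178528875-178529174 on the plus strand for Kif26b and chr11:53567119-53567418 on the plus strand for Kif3a.
Kif18a: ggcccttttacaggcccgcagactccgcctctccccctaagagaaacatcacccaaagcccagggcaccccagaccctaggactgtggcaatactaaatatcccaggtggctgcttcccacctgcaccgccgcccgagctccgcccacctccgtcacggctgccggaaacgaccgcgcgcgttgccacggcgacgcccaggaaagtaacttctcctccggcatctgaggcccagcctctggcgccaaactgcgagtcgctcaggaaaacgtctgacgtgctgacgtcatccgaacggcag
Kif2c: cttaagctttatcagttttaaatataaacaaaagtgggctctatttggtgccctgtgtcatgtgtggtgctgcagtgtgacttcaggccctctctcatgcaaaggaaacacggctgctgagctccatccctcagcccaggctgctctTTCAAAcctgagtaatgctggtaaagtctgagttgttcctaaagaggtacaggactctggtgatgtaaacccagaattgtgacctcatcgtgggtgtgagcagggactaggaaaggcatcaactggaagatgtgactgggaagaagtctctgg
Kif20b: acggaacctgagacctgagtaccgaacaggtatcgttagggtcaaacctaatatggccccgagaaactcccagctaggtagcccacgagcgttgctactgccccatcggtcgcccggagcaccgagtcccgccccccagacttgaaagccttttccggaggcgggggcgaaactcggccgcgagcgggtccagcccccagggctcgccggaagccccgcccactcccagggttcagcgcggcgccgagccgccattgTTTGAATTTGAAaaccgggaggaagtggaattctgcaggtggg
Kif23: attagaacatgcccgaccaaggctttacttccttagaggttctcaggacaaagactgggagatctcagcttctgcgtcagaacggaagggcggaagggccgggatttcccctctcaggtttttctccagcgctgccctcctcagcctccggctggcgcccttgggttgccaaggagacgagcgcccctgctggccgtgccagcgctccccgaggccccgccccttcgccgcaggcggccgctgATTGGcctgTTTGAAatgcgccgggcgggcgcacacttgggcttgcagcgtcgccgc
Cenpe: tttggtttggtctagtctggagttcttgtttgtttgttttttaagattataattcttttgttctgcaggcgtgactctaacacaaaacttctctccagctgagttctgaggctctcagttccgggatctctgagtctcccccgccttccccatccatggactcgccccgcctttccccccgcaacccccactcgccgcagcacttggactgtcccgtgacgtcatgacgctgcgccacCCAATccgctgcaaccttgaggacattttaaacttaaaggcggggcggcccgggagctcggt
Kif26b: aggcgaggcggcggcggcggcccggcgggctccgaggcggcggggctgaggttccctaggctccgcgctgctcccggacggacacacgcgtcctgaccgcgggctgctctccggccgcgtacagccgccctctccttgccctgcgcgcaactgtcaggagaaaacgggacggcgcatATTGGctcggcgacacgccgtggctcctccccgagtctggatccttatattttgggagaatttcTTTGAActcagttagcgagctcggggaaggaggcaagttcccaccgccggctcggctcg
Kif3a: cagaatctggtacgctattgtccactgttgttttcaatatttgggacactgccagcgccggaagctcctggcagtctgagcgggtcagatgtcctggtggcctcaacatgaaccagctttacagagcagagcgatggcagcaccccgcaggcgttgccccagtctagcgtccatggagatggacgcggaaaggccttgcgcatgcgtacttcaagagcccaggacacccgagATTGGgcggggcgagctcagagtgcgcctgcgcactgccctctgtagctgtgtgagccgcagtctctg

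In these windows counting from the start with negative positions before it, the CHR letters of Kif2c begin at -103, those of Kif20b at 8 and 14 and those of Kif23 at 3. Kif23 also has a CCAAT box at -7, and Cenpe and Kif3a have one at -12 and -18 with no CHR. Kif26b has CHR letters at -9 and a CCAAT box at -73, and Kif18a has neither. Of the mitotic kinesins 13 of 14 had a window, and 11 of the 13 (84.6%) held a CHR and 9 (69.2%) a CCAAT box. Of the transport kinesins 12 of 18 had a window, and of their 14 windows 1 (7.14%) held a CHR and 5 (35.7%) a CCAAT box. Over all 32851 windows the shares were 19.2% and 37.4%. The base composition also differed, with a median GC content of 60.7% in mitotic kinesins, 68.2% in transport kinesins and 52.7% in all windows. A palindromic NFI site, TTGGC and GCCAA separated by 5 bases, was in 0 windows of any member list and in 0.0365% of all windows.

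Most CHR letters of the mitotic kinesins lay close to the start. From 50 bases before to 50 after the start, an interval chosen after the positions were seen, a CHR was present in 69.2% of the windows of mitotic kinesins, in 29 of 58 of those of all members other than transport and other kinesins, and in 5.31% of all windows. Within those mitotic members the differences were alike with and without the letters: the median difference was 0.48 in the 29 tested genes with a CHR, of which 12 passed, and 0.47 in the 20 without one, of which 6 passed. Cenp genes of the kinetochore had a CHR in 28.6% and a CCAAT box in 76.2% of 21 windows. A match describes the letters only, and no binding was measured.

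**Figure D3:**
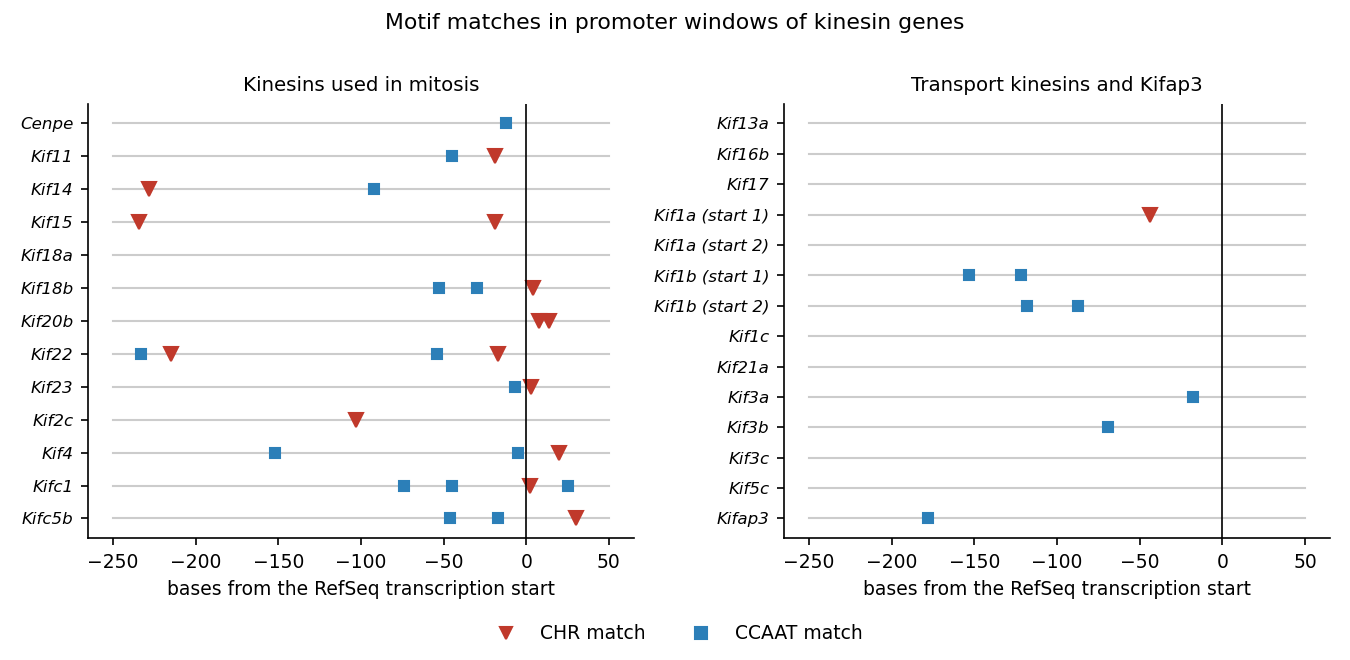
Distance of each CHR and CCAAT match from the annotated start in bases (x axis) for the promoter windows of mitotic and transport kinesins (y axis, 1 line per window). CHR matches occur in 11 of 13 windows of mitotic kinesins, mostly around the start, and in 1 of 14 windows of transport kinesins.

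Most kinetochore Cenp genes had a higher mean, but few passed. Of 18 tested, 17 had a higher mean in the Cre-labelled lungs, 12 had no overlap between groups with the Cre-labelled arrays above, and 2 rose. Their median difference was 0.44 (1.36-fold). Over all tested genes 48.5% had a higher mean, 15.3% lay above without overlap and 1.92% rose. Cenpk, a subunit of the constitutive centromere network, read 8.07, 7.75 and 7.24 against 8.82, 8.58 and 8.56 and rose by 0.97 ± 0.19 (1.96-fold, adjusted p 0.028), the largest rise of the 20 that passed. Cenpa, the histone H3 variant that marks the centromere, read 9.37, 9.32 and 9.21 against 9.81, 9.78 and 9.61 and rose by 0.44 ± 0.10 (1.35-fold, adjusted p 0.047), the smallest. Cenpl, another subunit of that network, read 7.01, 6.98 and 6.50 against 7.62, 7.51 and 7.41, a difference of 0.68 ± 0.16 that missed the threshold at an adjusted p of 0.053. Cenph (0.67), Cenpc1 (0.59) and Cenpf (0.56) had differences of like size with adjusted p-values of 0.077, 0.10 and 0.077.

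Cenpb alone had a lower mean, and Cenpx, Cenpt and Cenpu had overlapping groups and 95% intervals wholly below the median of their list. Cenpx, which also serves the Fanconi DNA repair pathway, read 8.17, 8.28 and 8.09 against 8.13, 8.32 and 8.18, with a 95% interval of -0.21 to 0.27. The differences of Cenpt (0.08 ± 0.11) and Cenpu (0.10 ± 0.13) were also small. Cenpb, which binds a box in centromeric satellite DNA, read 6.86, 6.31 and 6.66 against 6.22, 5.73 and 4.97, a difference of -0.97 ± 0.30 (adjusted p 0.11). It was the only Cenp gene whose Cre-labelled arrays all lay below the controls. Cenpj, a centriole protein, and Cenpv were the 2 Cenp genes not counted in the kinetochore list. Both had overlapping groups, with differences of 0.15 ± 0.11 and 0.07 ± 0.14. Cenpj read 7.57, 7.60 and 7.55 against 7.76, 7.83 and 7.58, and Cenpv read 6.48, 6.46 and 6.64 against 6.68, 6.63 and 6.50.

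The spindle checkpoint gave the highest share of calls among the lists of more than 3 genes: 4 of 6 tested genes rose and all 6 had a higher mean. Over all tested genes 1.92% rose and 48.5% had a higher mean. The median difference of the 6 was 0.57 (1.49-fold). Mad2l1, which binds and blocks the activator of the anaphase-promoting complex, read 9.56, 9.35 and 9.24 against 10.29, 10.04 and 9.90 and rose by 0.69 ± 0.13 (1.61-fold, adjusted p 0.025). Ttk, the kinase that starts the checkpoint signal, read 7.74, 7.68 and 7.51 against 8.45, 8.33 and 8.13 and rose by 0.66 ± 0.12 (1.58-fold, adjusted p 0.023). Bub1, a kinase on the kinetochore, read 9.01, 8.78 and 8.78 against 9.55, 9.36 and 9.33 and rose by 0.55 ± 0.11 (1.46-fold, adjusted p 0.029).

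In all 3 genes every Cre-labelled array lay above every control-labelled array. Bub1b rose by 0.60 ± 0.13 (adjusted p 0.039). Cdc20, the activator that the checkpoint holds back, had a difference of 0.35 ± 0.12 (adjusted p 0.14). Bub3, which recruits Bub1 and Bub1b, read 10.54, 10.64 and 10.75 against 10.71, 10.77 and 10.83, with overlapping groups and a 95% interval of -0.10 to 0.36.

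**Figure D4:**
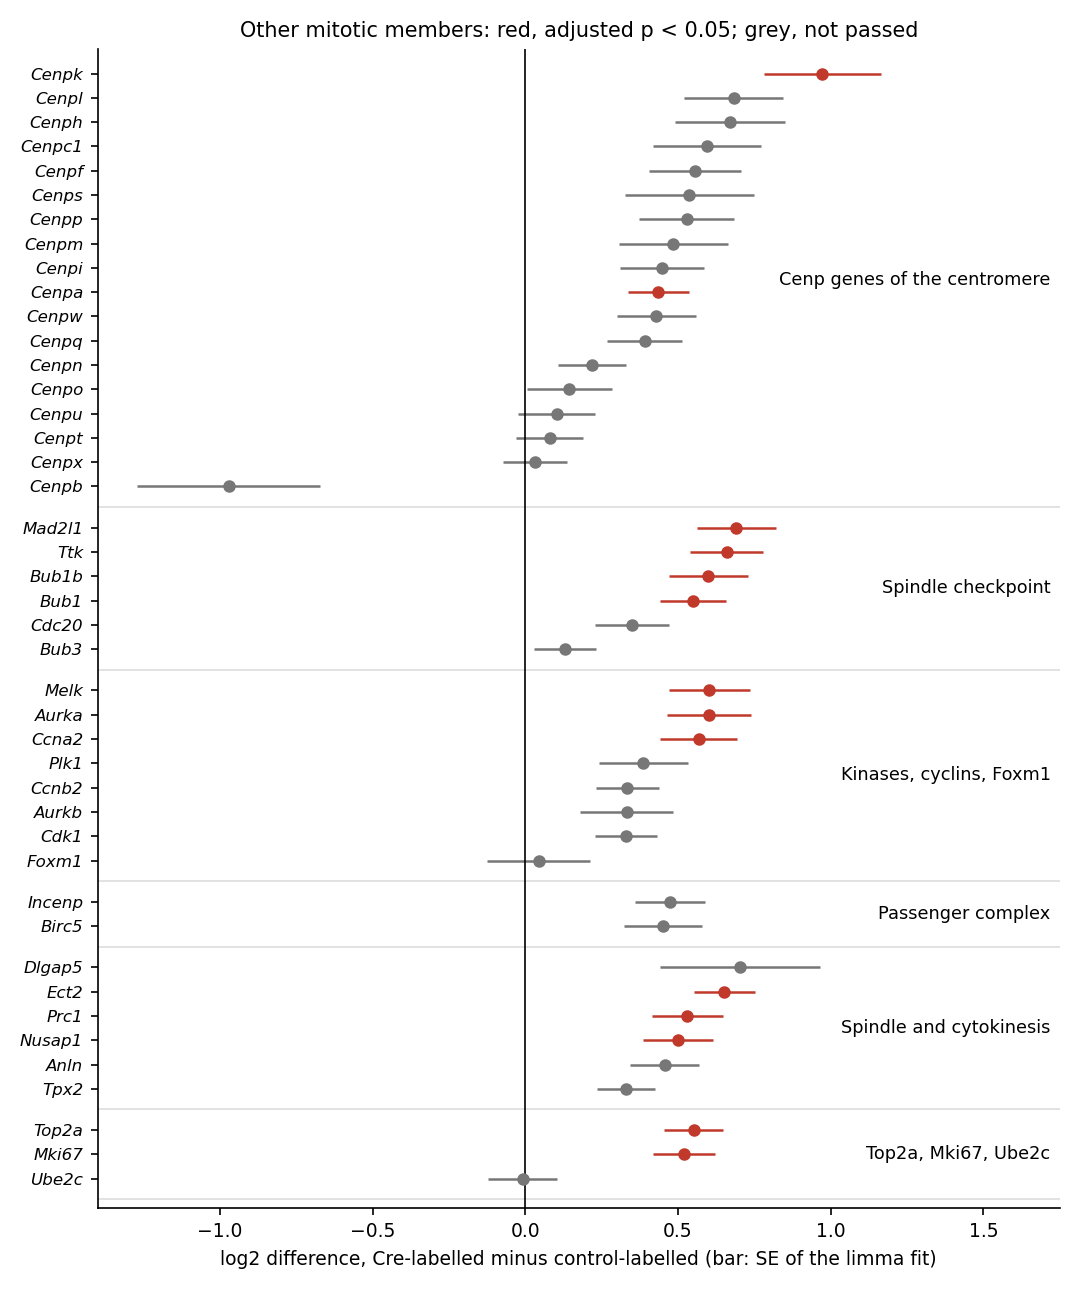
Cre-labelled minus control-labelled log2 difference (x axis) with its SE from limma (bars) for 43 tested mitotic members that are not kinesins (y axis), grouped by role, in red where the gene passed. The points of 41 of these genes lie right of 0, 14 passed, and Cenpb is the lowest at -0.97.

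Of the 8 tested mitotic kinases, cyclins and their regulator Foxm1, all had a higher mean and 3 rose, with a median difference of 0.36 (1.28-fold). Over all tested genes 48.5% had a higher mean and 1.92% rose. Ccna2, the cyclin of S phase and early mitosis, read 9.98, 9.90 and 9.56 against 10.48, 10.29 and 10.37 and rose by 0.57 ± 0.13 (1.48-fold, adjusted p 0.043). Aurka, the kinase of the spindle poles, read 8.21, 8.06 and 7.82 against 8.84, 8.60 and 8.45 and rose by 0.60 ± 0.14 (adjusted p 0.049). Melk, a kinase of proliferating progenitors, read 7.64, 7.40 and 7.71 against 8.39, 8.13 and 8.04 and rose by 0.60 ± 0.13 (1.52-fold, adjusted p 0.042). Plk1 (0.39), Ccnb2 (0.33), Aurkb (0.33) and Cdk1 (0.33) had differences that did not pass, with adjusted p-values of 0.18, 0.11, 0.27 and 0.11. Foxm1, the transcription factor that drives many of these genes, read 6.31, 5.95 and 6.32 against 6.24, 6.33 and 6.14. Its groups overlapped and its difference was 0.04 ± 0.17 (adjusted p 0.92), with a mean that turned lower in some other settings. A second Foxm1 probe set read 5.74, 5.59 and 4.64 against 6.04, 5.79 and 5.95, without overlap and with a difference of 0.60 ± 0.29 (adjusted p 0.29). A further one differed by 0.88 ± 0.53 (adjusted p 0.41) with overlapping groups, so the Foxm1 probe sets disagree in size and none passed.

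The chromosome passenger proteins Incenp and Birc5 bring Aurkb to the centromere and the midzone. By their brightest probe set both had the Cre-labelled arrays above without overlap (15.3% of all tested genes did), but did not pass. Incenp read 9.33, 9.20 and 8.99 against 9.68, 9.53 and 9.73, a difference of 0.47 ± 0.11 (adjusted p 0.055, limma). A second Incenp probe set had overlapping groups and a difference of 0.11 ± 0.16 (adjusted p 0.77). A further one differed by 0.58 ± 0.22 without overlap (adjusted p 0.18). Birc5 read 9.71, 9.77 and 9.33 against 10.11, 10.09 and 9.96, a difference of 0.45 ± 0.13 (adjusted p 0.089).

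All 6 tested genes of the spindle midzone and cytokinesis had the Cre-labelled arrays above without overlap by their brightest probe set, and 3 rose. Over all tested genes 15.3% lay above without overlap and 1.92% rose. Ect2, which starts the furrow at the cleavage site, read 8.79, 8.75 and 8.75 against 9.26, 9.44 and 9.54. The controls were nearly equal, the gene rose by 0.65 ± 0.10 (1.57-fold, adjusted p 0.013), and it passed in 5 of 6 fits that left out 1 array, more than any other member; without control-labelled replicate 2 its adjusted p was 0.053. Prc1, which crosslinks midzone microtubules, read 8.59, 8.42 and 8.19 against 8.96, 8.89 and 8.93 and rose by 0.53 ± 0.12 (adjusted p 0.041). Nusap1, a spindle microtubule stabiliser, read 9.80, 9.66 and 9.49 against 10.26, 10.01 and 10.18 and rose by 0.50 ± 0.11 (adjusted p 0.047). Dlgap5, a spindle assembly factor, had a difference of 0.70 ± 0.26 that did not pass (adjusted p 0.18), at 4.80, 4.76 and 4.13 against 5.03, 5.34 and 5.44. A second Dlgap5 probe set of similar level read 4.95, 4.68 and 4.96 against 4.77, 5.10 and 4.18, with overlapping groups and a difference of -0.18 ± 0.28 (adjusted p 0.78), so no direction is given for Dlgap5. Anln (0.46, adjusted p 0.058) and Tpx2 (0.33, adjusted p 0.094) also did not pass.

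The remaining members were the common markers of proliferation. Top2a, the topoisomerase that untangles sister chromatids, read 10.48, 10.42 and 10.37 against 11.03, 10.93 and 10.97 and rose by 0.55 ± 0.10 (1.47-fold, adjusted p 0.019). Mki67, which coats mitotic chromosomes, read 10.74, 10.68 and 10.60 against 11.18, 11.13 and 11.26 and rose by 0.52 ± 0.10 (1.43-fold, adjusted p 0.026). In both genes the values within a group lay close together and apart from the other group. Ube2c, the ubiquitin-conjugating enzyme that works with the anaphase-promoting complex, read 8.57, 8.47 and 8.61 against 8.73, 8.39 and 8.51. Its groups overlapped, and its 95% interval of -0.26 to 0.25 did not reach the 0.48 median of the mitotic members. Its mean turned slightly higher under scaling to a common median (0.026) and with array weights (0.0075).

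The arrays of a group differed in the same order for many members. Control-labelled array 3 was the lowest control for 11 of 11 mitotic kinesins and 44 of the 56 mitotic members, against 9 of 16 transport kinesins, and Cre-labelled array 1 was the highest of its group for 9 of 11, 39 of 56 and 7 of 16. The mean over the 11 mitotic kinesins was 7.95, 7.83 and 7.50 on the control-labelled and 8.45, 8.27 and 8.28 on the Cre-labelled arrays. The mean over the 16 transport kinesins was 7.31, 7.14 and 7.16 against 7.20, 7.12 and 7.14, a difference of -0.05, opposite in sign to their median of 0.05. For the checkpoint genes it was 9.20, 9.12 and 9.002 against 9.72, 9.57 and 9.53. The arrays also differed in the log2 signal of 3′ minus 5′ control probe sets. For Actb this was 0.35, 0.37 and 0.52 on the control-labelled and 0.41, 0.44 and 0.83 on the Cre-labelled arrays. For Gapdh it was -0.16, -0.20 and -0.05 against -0.34, -0.32 and 0.07. Array 3 had the largest value of each group in both, and its part in the differences was not tested.

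**Figure D5:**
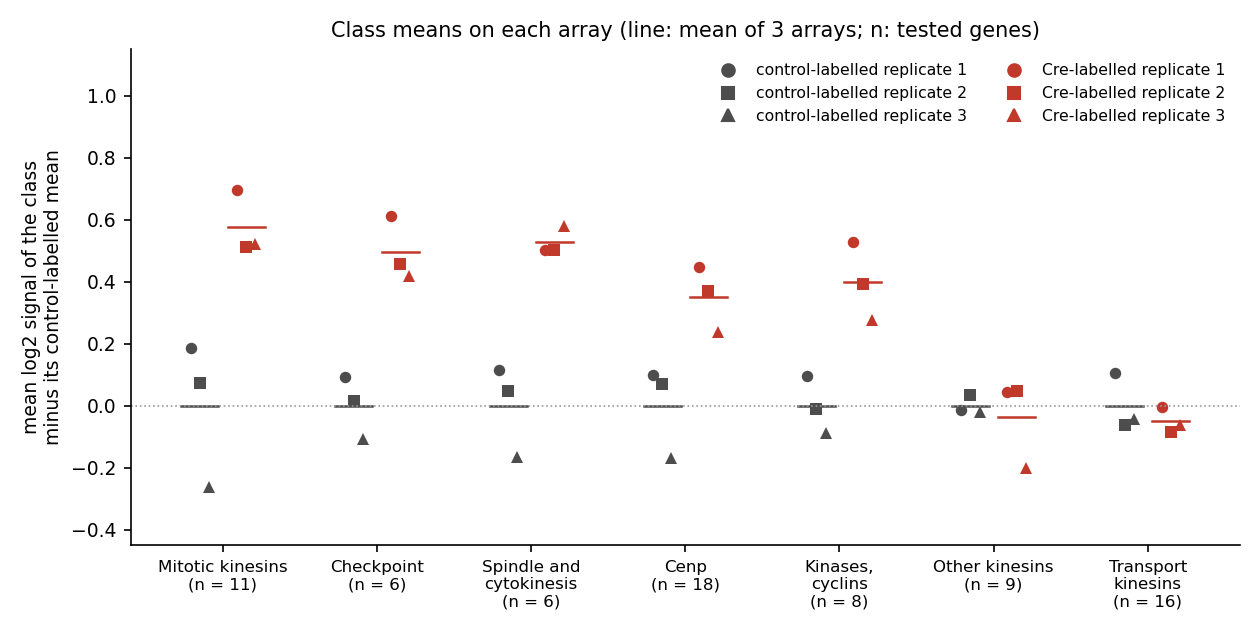
Mean log2 signal over the tested genes of each list minus its control-labelled mean (y axis) on the 3 control-labelled and 3 Cre-labelled arrays (points; lines are group means), by list (x axis). In the 5 mitotic lists drawn the Cre-labelled arrays lie above the controls, with a difference of 0.58 for the mitotic kinesins, while those of the transport kinesins overlap at -0.05.

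Markers of other cell types also moved with the groups. The summed linear signal of lung epithelial markers was 20184 to 34409 in control-labelled and 18594 to 19688 in Cre-labelled lungs. Of the 8, 2 fell (Aqp5 and Sftpb) and 7 had a lower mean. Epcam lay higher on every Cre-labelled array (0.32 ± 0.12, adjusted p 0.18, limma). Sftpc differed by only -0.07 ± 0.30 and was brightest on control-labelled array 3 (13.52). The sum of leukocyte markers was 5162 to 5803 against 3018 to 3520, and 3 of 6 tested fell (Lyz2, S100a8 and Ngp). That of endothelial markers was 8547 to 9509 against 6018 to 7648 with 0 of 8 called. Of these 8, 7 had a lower mean, while Tek lay slightly higher on every Cre-labelled array (0.10 ± 0.09). Lung mesenchymal markers summed to 14826 to 16069 against 14087 to 15466, with 0 of 9 called. Cardiac muscle markers summed to 3254 to 12663 against 1948 to 4972 with 0 of 10 called and all 10 above the filter, and skeletal muscle markers to 292 to 3485 against 238 to 309, with 4 of 8 below it. Erythroid markers summed to 963 to 1108 against 463 to 846. Of the neuronal markers 4 of 6 were below the filter, 1 of the other 2 fell (Stmn2, -0.62 ± 0.12, adjusted p 0.027), and the summed signal was 385 to 430 against 286 to 332. With the mean log2 signal of the 10 cardiac markers (the cardiac mean) as a covariate, the median of the mitotic kinesins was 0.77. In that fit 8 members passed, of which 6 were among the 20. The part of the other cell types in the members' differences was not tested.

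Genes of the same pathways that are not members were counted from lists that were also named with earlier results known. Of 101 such tested genes, 87 (86.1%) had a higher mean in the Cre-labelled lungs, 13 (12.9%) rose and 0 fell. Over all tested genes 48.5% had a higher mean, 1.92% rose and 3.04% fell. The median difference of the 101 was 0.32 (1.25-fold). Of 26 kinetochore and checkpoint genes 5 rose, led by Spc25, a subunit of the microtubule-binding Ndc80 complex (0.68 ± 0.10, adjusted p 0.012), Sgo2a, which protects centromeric cohesion (0.57 ± 0.11, 0.023), and Cdca8, the passenger protein borealin (0.61 ± 0.11, 0.023). Of 29 spindle genes 3 rose, which were Psrc1, a spindle microtubule protein (0.97 ± 0.11, 0.0050), Bora, an activator of Aurka (0.55 ± 0.10, 0.026), and Tacc3, which crosslinks kinetochore fibres (0.61 ± 0.14, 0.045).

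Of 22 chromosome genes, which hold the condensins and cohesins, 5 rose, against 1.92% of all tested genes. The first 3 by p-value were Cdca3 (0.70 ± 0.12, adjusted p 0.018) and the condensin subunits Ncapg2 (0.56 ± 0.10, 0.022) and Ncaph (0.51 ± 0.10, 0.025). Of 24 genes of the anaphase-promoting complex and Cdk control 0 passed in limma's adjusted test, although 10 were higher and 0 lower at an unadjusted p below 0.05, against 10.7% and 12.8% of all tested genes. The nearest to the threshold were Cdc25c, the phosphatase that activates Cdk1 (0.86 ± 0.23, 0.071), Cks1b (0.40 ± 0.11, 0.088) and Ccnf (0.54 ± 0.16, 0.0996).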

How the data were processed

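The authors deposited log2 signals of 6 Affymetrix arrays, and per the submitters' processing notes they were made with MAS5 and affy, without versions. Raised to the power of 2, they had a trimmed mean (2% at each end) of 150.04 to 150.05 on every array. They were used as deposited. Of 45101 probe sets 64 controls were left out, 27022 were tested, and probe sets with several gene symbols (932) or none (9160) were not named. The fit was limma 3.58.1 in R 4.3.3 (lmFit, eBayes with intensity trend, two-sided, residual degrees of freedom 4, prior 5.32), tested on simulated data. All 6 arrays entered with no covariates.

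The members and lists were chosen with earlier results of these data known. Named were members that passed, the 3 smallest differences of the mitotic and the 3 largest of the transport kinesins that did not, and in each other list the 3 smallest p-values and the largest. In pathway lists the 3 smallest p-values were named. Of the genes nearest to the mitotic kinesins over the arrays, 1 of 5 is not reported here. Further probe sets are given for Kif11, Kif22, Kif5b, Foxm1, Dlgap5 and Incenp, chosen after their values were seen. So were Kif3c, Kif3a, Cenpt, Cenpu, Stmn2, Epcam, Sftpc, Tek and a few members near the threshold. Same-numbered samples were checked for pairing by the correlation of their deviations from the group means, which was -0.01, 0.20 and 0.14. For samples of different group and number it ran from -0.27 to 0.14. With 3 arrays in each group this check cannot exclude pairs. No label states a pairing, and the numbers were not taken as pairs. Array number limits the precision.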

Additional observations from a re-analysis of the deposited data

How the results depend on the processing

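The 963 probe sets that passed became 171 without the intensity trend, 2120 at an adjusted p of 0.10, and 314 to 495 without 1 array. They became 630 with the cardiac mean and 607 with Xist (high on control-labelled array 1 and Cre-labelled array 2) as a covariate. The 20 members became 12 with arrays at a common median, 13 without the filter, 8 with the cardiac mean and 10 with Xist. When a gene's probe sets were averaged, 12 passed. Without the trend 0 passed, with limma adjusted p-values of 0.063 to 0.13 for the 20. At an unadjusted p below 0.05 that fit had 45 members higher and 3 lower. Without 1 array 1 to 7 passed, with 1 without control-labelled replicate 2 or Cre-labelled replicate 1. The 5 mitotic kinesins became 0 without the trend, 2 with the mean of probe sets and 0 to 2 without 1 array. The 0 transport kinesins became 1 at an adjusted p of 0.10 (Kifc2).

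With the replicate number as a block, 26 members passed, including the 20, and 1 transport kinesin, Kif5b (-0.54, limma adjusted p 0.045). By their labels the samples share only a number.

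The median of the mitotic kinesins was 0.77 with the cardiac mean and 0.42 to 0.69 without 1 array. That of the transport kinesins was -0.056 without the filter and -0.057 to 0.079 without 1 array. Small differences changed sign: Cenpv (-0.047) and Foxm1 (-0.011) with the cardiac mean, and Kif5b with the mean of probe sets (0.0013). So did that of Ube2c at a common median (0.026) or with array weights (0.0075). Without 1 array Cenpx ran from -0.024 to 0.083, Kif26a from -1.05 to 0.39, Foxm1 from -0.078 to 0.11 and Ube2c from -0.10 to 0.069. The share of mitotic kinesin promoters with a CHR stayed at 84.6% with TTTGAA alone.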

Other observations

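Outside the members, the genes whose signal ran closest to the mean of the tested mitotic kinesins over the 6 arrays were described by Pearson correlation, with no test, since the points share the group difference and only 6 arrays. Lef1, a transcription factor of Wnt signalling, had the highest correlation at 0.998 and rose by 1.06 ± 0.21 in the Cre-labelled lungs (2.09-fold, adjusted p 0.030, limma). Haus1, a subunit of the augmin complex that helps to nucleate spindle microtubules, and Nuf2, a subunit of the Ndc80 complex of the kinetochore, followed at 0.996 each; both are also in the pathway lists. They did not pass, with differences of 0.15 ± 0.09 and 0.47 ± 0.12. Next came Phgdh, the first enzyme of serine synthesis, at 0.995 with a rise of 0.84 ± 0.18 (adjusted p 0.041).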
